A study of Homo sapiens with 6 samples.

Results

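The genes described here are 9 components of interferon signalling, namely 4 receptor chains (IFNAR1, IFNAR2, IFNGR1 and IFNGR2), the Janus kinases JAK1 and TYK2, the transcription factor subunits STAT2 and IRF9, and the transcription factor IRF1. They were found by symbol in a table of 16116 genes, which listed all 9 once each. The RNA came from HK-2 cells, an immortalised human line derived from proximal tubule epithelium. One group of 3 libraries carries the genotype label FAM134B-KO (KO), and the other group of 3 is labelled WT. FAM134B is the older name of RETREG1, a receptor for autophagy of the endoplasmic reticulum, whereas the design text of the series names TAX1BP1 as the disrupted gene. No interferon treatment is named in the labels, and nothing there tells how the KO cells were made, whether they are 1 clone, or whether replicate libraries came from separate cultures. The p-values therefore describe how these libraries scatter, a scatter that may be technical.

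Interferons act on almost every nucleated cell. Type I interferons bind the IFNAR1 and IFNAR2 pair, and interferon gamma binds the IFNGR1 and IFNGR2 chains. JAK1 serves both receptors, TYK2 is bound to IFNAR1, and JAK2 is bound to IFNGR2. Type I signalling builds the complex ISGF3, which holds STAT2 and IRF9 and binds interferon-stimulated response elements (ISRE). Interferon gamma acts through gamma-activated sites (GAS), and IRF1 is one of the classic genes it switches on. In renal tubule cells these routes control antiviral and antigen-presentation genes.

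RefSeq promoter windows of 300 bases (250 before and 50 after the start, GRCh38.p14) were at hand for 8 of the 9 genes, in 12 windows. The GAS motif was searched as TTCNNNGAA and the ISRE as GAAA, any 2 bases and GAAA, on both strands, and no window of these genes held both. GAS matches were found in 2 of the 12 windows, against 7.66% of 35116 windows of all genes. ISRE matches were found in 0 of the 12, against 3.57% of all windows. The windows with a match belong to IRF1 (chr5:132490724-132491023, minus strand) and IRF9 (chr14:24161015-24161314, plus strand). They are printed 5′ to 3′ because they are the windows of these genes that hold the GAS motif, and capitals mark the match.
IRF1: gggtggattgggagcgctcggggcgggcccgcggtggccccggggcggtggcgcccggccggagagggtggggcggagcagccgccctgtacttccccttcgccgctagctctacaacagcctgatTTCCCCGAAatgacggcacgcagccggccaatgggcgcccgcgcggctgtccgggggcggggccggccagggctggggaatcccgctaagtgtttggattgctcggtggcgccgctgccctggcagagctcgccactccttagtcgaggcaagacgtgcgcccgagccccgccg
IRF9: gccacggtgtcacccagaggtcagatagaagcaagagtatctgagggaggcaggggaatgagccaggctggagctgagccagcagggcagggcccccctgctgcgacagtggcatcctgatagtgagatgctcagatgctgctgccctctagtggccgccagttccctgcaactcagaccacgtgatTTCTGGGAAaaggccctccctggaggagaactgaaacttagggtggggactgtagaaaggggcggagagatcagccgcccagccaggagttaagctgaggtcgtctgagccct
The match TTCCCCGAA of IRF1 lies at positions -124 to -116 from the start, and the match TTCTGGGAA of IRF9 at -63 to -55. Such a match is a description of the letters and does not show that a factor binds there.

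The libraries held 16796964 to 17127468 estimated reads, and KO and WT libraries separated on the first principal component, with 80.1% of the variance. RETREG1 had 33, 27 and 28 reads in KO libraries, against 72, 80 and 73 in WT libraries. Its level in KO was 39.7% of that in WT (log2 fold change -1.33, SE 0.18, adjusted p = 5.31e-07 in edgeR's quasi-likelihood test). TAX1BP1, a selective autophagy receptor, had 151 ± 9.46 CPM (reads scaled to library size with TMM factors) in KO and 156 ± 6.30 CPM in WT (SD, n = 3 each), and its log2 fold change of -0.05 (SE 0.054) was not called (adjusted p = 0.533). Of 14 listed renal and epithelial markers, 9 had enough reads to be tested. The 14 summed to 1688 to 1844 CPM in KO libraries and 1991 to 2094 CPM in WT libraries. CDH1 was nearly absent, at a mean of 0.0596 CPM in KO and 0.0394 CPM in WT. Of the 9 tested, 5 fell and EPCAM and PAX8 rose, where 18.1% of all tested genes fell and 18.7% rose. PAX8 stood at 561 ± 39.5 CPM in KO and 458 ± 25.4 CPM in WT. Of genes of the proximal tubule brush border, GGT1 averaged 224 CPM in KO and 221 CPM in WT and MME 60.1 CPM in KO and 55.1 CPM in WT, whereas AQP1, ANPEP, LRP2 and CUBN averaged under 1 CPM in both groups. Of 14 leukocyte markers 10 were listed. Their summed level was 24.5 to 25.5 CPM in KO libraries and 22.1 to 27.3 CPM in WT libraries, almost all of it from the lysosomal gene CD68, and PTPRC, the pan-leukocyte marker, averaged 0.0198 CPM in KO and was at 0 in WT. Since these are bulk libraries, fewer cells of a type and less RNA per cell cannot be told apart.

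None of the 9 genes was higher in KO. At an adjusted p under 0.05 in edgeR, IRF1, JAK1, IFNAR2, IFNAR1 and IFNGR2 fell, and IFNGR1, TYK2, STAT2 and IRF9 were not called. That is 5 called of 9, where 36.8% of the 12702 tested genes were called, with 5 lower against 18.1% of all tested genes and 0 higher against 18.7%. The lower count was 3 without KO replicate 3 or without WT replicate 2, where 2145 of 12814 and 1891 of 12794 tested genes were lower. In CPM the KO and WT libraries of the same 5 genes did not overlap, as was the case for 46.3% of tested genes. DESeq2 likewise called 0 of the 9 higher, and 0 were higher at an unadjusted p under 0.05. All 9 log2 fold changes were below 0, with a median of -0.14, whereas 6341 of the 12702 tested genes were above 0 and their median was -0.00059. The share of tested genes with a larger absolute log2 fold change was 12.6% for IRF1, 19.6% for JAK1 and 20.6% for IFNAR2, and it was 49.1% for IFNAR1 and 50.7% for IFNGR2.

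**Figure D1:**
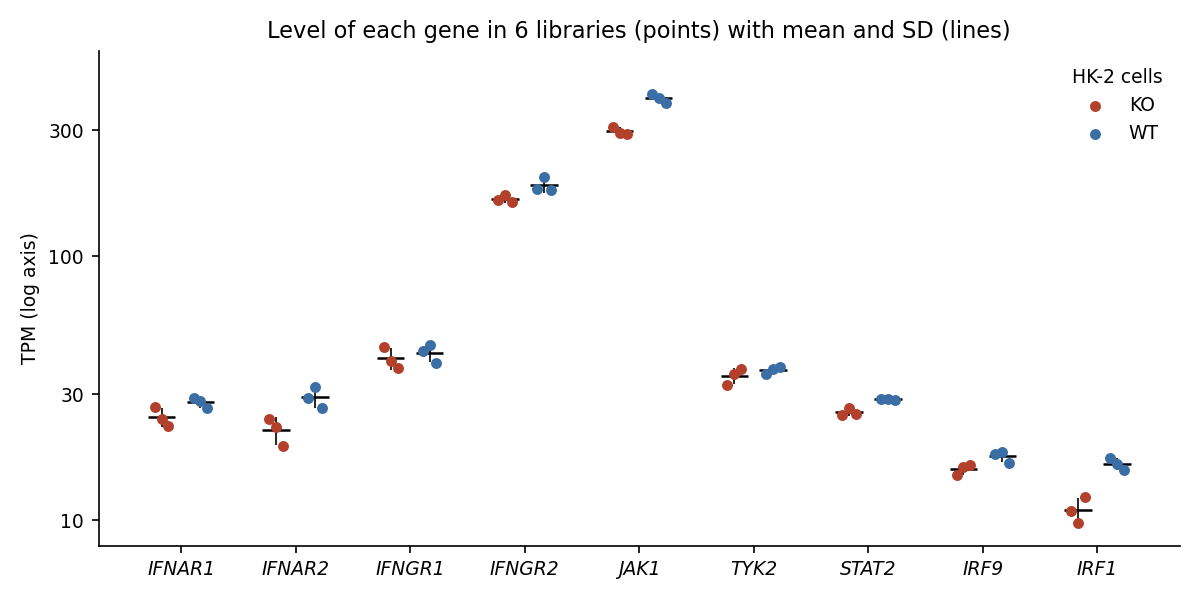
Level of the 9 genes in TPM (scaled to length and depth) on a log axis, with 1 point per library, the group mean as a horizontal line and the SD as a vertical line, KO left of WT. By group mean JAK1 stands highest and IRF1 lowest in both groups. The KO points of IRF1, JAK1, IFNAR2, IFNGR2, STAT2 and IRF9 lie below all WT points, and those of IFNAR1, IFNGR1 and TYK2 overlap them.

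The length-scaled levels spanned more than an order of magnitude. In KO cells JAK1 was highest at 298 ± 10.6 TPM, followed by IFNGR2 at 164 ± 5.13, IFNGR1 at 41.0 ± 3.89 and TYK2 at 35.2 ± 2.41 TPM. In WT cells the same 4 genes came first in the same order, with JAK1 at 397 ± 14.0, IFNGR2 at 185 ± 11.7, IFNGR1 at 43.0 ± 3.41 and TYK2 at 37.1 ± 1.11 TPM (SD, n = 3 each throughout). Libraries of neighbours in that order did not overlap among these 4 genes in either group. STAT2, IFNAR1 and IFNAR2 lay together below them. In KO they ran from STAT2 at 25.6 ± 0.849 through IFNAR1 at 24.6 ± 2.06 to IFNAR2 at 21.9 ± 2.60 TPM, and in WT from IFNAR2 at 29.2 ± 2.59 through STAT2 at 28.7 ± 0.0436 to IFNAR1 at 28.0 ± 1.31 TPM. The ranges of neighbours overlapped within these 3, although within each KO library IFNAR1 was above IFNAR2. IRF9 and IRF1 were lowest. Their libraries did not overlap in KO, at 15.6 ± 0.738 TPM for IRF9 and 10.9 ± 1.22 TPM for IRF1, but did in WT, at 17.5 ± 0.891 TPM for IRF9 and 16.3 ± 0.877 TPM for IRF1.

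Among the receptor chains, IFNAR2 changed most. IFNAR2 (NCBI gene 3455), the chain that holds the ligand with high affinity and docks JAK1 and STAT2, had 45.2, 42.3 and 39.4 CPM in KO libraries, against 56.4, 55.0 and 52.1 CPM in WT libraries. Every KO library was below every WT library. The KO level was 77.6% of the WT level (log2 fold change -0.37, SE 0.065, adjusted p = 4.99e-05 in edgeR). IFNAR1 (NCBI gene 3454), the chain that carries TYK2, had 83.9, 78.3 and 74.8 CPM in KO libraries, against 91.7, 86.2 and 85.3 CPM in WT libraries. Its groups did not overlap either, although KO replicate 1 came close to the lowest WT library and in TPM exceeded it, at 26.8 against 26.5. Its call was narrow (log2 fold change -0.15, SE 0.057, adjusted p = 0.0402 in edgeR). It was lost without KO replicate 2, KO replicate 3, WT replicate 1 or WT replicate 2 (adjusted p = 0.137, 0.171, 0.155 and 0.0673), in DESeq2 (0.0634), with TMM factors from genes outside chromosomes 1, 4 and 6 (0.0871) and in 3 limma settings (0.0897 to 0.113).

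Of the gamma receptor chains, IFNGR2 fell, to 90.5% of the WT level, and IFNGR1 was not called. IFNGR2 (NCBI gene 3460), the signal-transducing chain that docks JAK2, had 123, 133 and 127 CPM in KO libraries, against 136, 149 and 139 CPM in WT libraries. The groups did not overlap, and the log2 fold change was -0.14 (SE 0.053, adjusted p = 0.0346 in edgeR). TMEM50B, whose gene overlaps IFNGR2, had 140, 145 and 130 reads in KO libraries and 189, 191 and 167 in WT libraries. The IFNGR2 call was lost without KO replicate 1, KO replicate 3, WT replicate 2 or WT replicate 3 (adjusted p = 0.0885, 0.0644, 0.183 and 0.0523), with TMM factors from genes outside chromosomes 1, 4 and 6 (0.0769) and in limma on log2 of TPM plus 1 (0.0557). IFNGR1 (NCBI gene 3459), the ligand-binding chain that docks JAK1, had 44.4, 40.8 and 38.8 CPM in KO libraries, against 43.0, 43.9 and 39.7 CPM in WT libraries. Here the groups overlapped fully. Its log2 fold change was -0.03 (95% interval -0.17 to 0.11, adjusted p = 0.765 in edgeR).

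Of the kinases, JAK1 fell and TYK2 was not called. JAK1 (NCBI gene 3716), which phosphorylates STATs under both interferon receptors, had 799.7, 781 and 785 CPM in KO libraries, against 1062, 1004 and 1009 CPM in WT libraries. Its 3 KO libraries lay close together and far below the WT libraries. The KO level was 76.9% of the WT level (log2 fold change -0.38, SE 0.046, adjusted p = 1.67e-07 in edgeR), and the call held in all 15 alternative settings, with log2 fold changes from -0.41 to -0.35. RAVER2, which overlaps JAK1, had 575, 505 and 596 reads in KO libraries and 649, 616 and 489 in WT libraries. TYK2 (NCBI gene 7297), the partner kinase on IFNAR1, had 67.8, 77.9 and 82.1 CPM in KO libraries, against 75.1, 77.2 and 82.2 CPM in WT libraries. KO replicate 1 was the lowest of the 6, and the other 2 KO libraries lay within the WT range. The log2 fold change was -0.04 (95% interval -0.17 to 0.09, adjusted p = 0.655 in edgeR).

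The ISGF3 subunits STAT2 and IRF9 were not called, at 91.1% and 91.4% of the WT level. STAT2 (NCBI gene 6773), which carries the transactivation domain of the complex, had 55.8, 62.4 and 59.4 CPM in KO libraries, against 65.5, 62.4 and 67.2 CPM in WT libraries. KO replicate 2 and WT replicate 2 met, so the groups overlapped in CPM, whereas in TPM the KO libraries at 24.97, 26.56 and 25.25 were all below the WT libraries at 28.68, 28.67 and 28.60. Its log2 fold change was -0.14 (95% interval -0.26 to -0.01, adjusted p = 0.0807 in edgeR). IRF9 (NCBI gene 10379), the DNA-binding subunit, had 10.5, 11.7 and 12.3 CPM in KO libraries, against 12.7, 12.9 and 12.1 CPM in WT libraries. KO replicate 3 exceeded WT replicate 3 in CPM, whereas in TPM every KO library, from 14.8 to 16.2, was below every WT library, from 16.5 to 18.1. The log2 fold change was -0.13 (95% interval -0.32 to 0.06, adjusted p = 0.301 in edgeR). IRF9 rested on the fewest reads of the 9, with 177 to 207 in KO libraries and 204 to 222 in WT libraries, and had the widest interval.

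IRF1 showed the largest change of the 9. IRF1 (NCBI gene 3659), a transcription factor for antigen-presentation and antiviral genes, had 13.4, 12.2 and 15.3 CPM in KO libraries, against 20.4, 19.5 and 19.5 CPM in WT libraries. The highest KO library was well below the lowest WT library. The KO level was 68.8% of the WT level (log2 fold change -0.54, SE 0.089, adjusted p = 1.67e-05 in edgeR), and the call held in all 15 alternative settings, with log2 fold changes from -0.63 to -0.46. IRF1 was also the only one of the 9 whose estimated reads were not whole, in 4 of the 6 libraries.

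**Figure D2:**
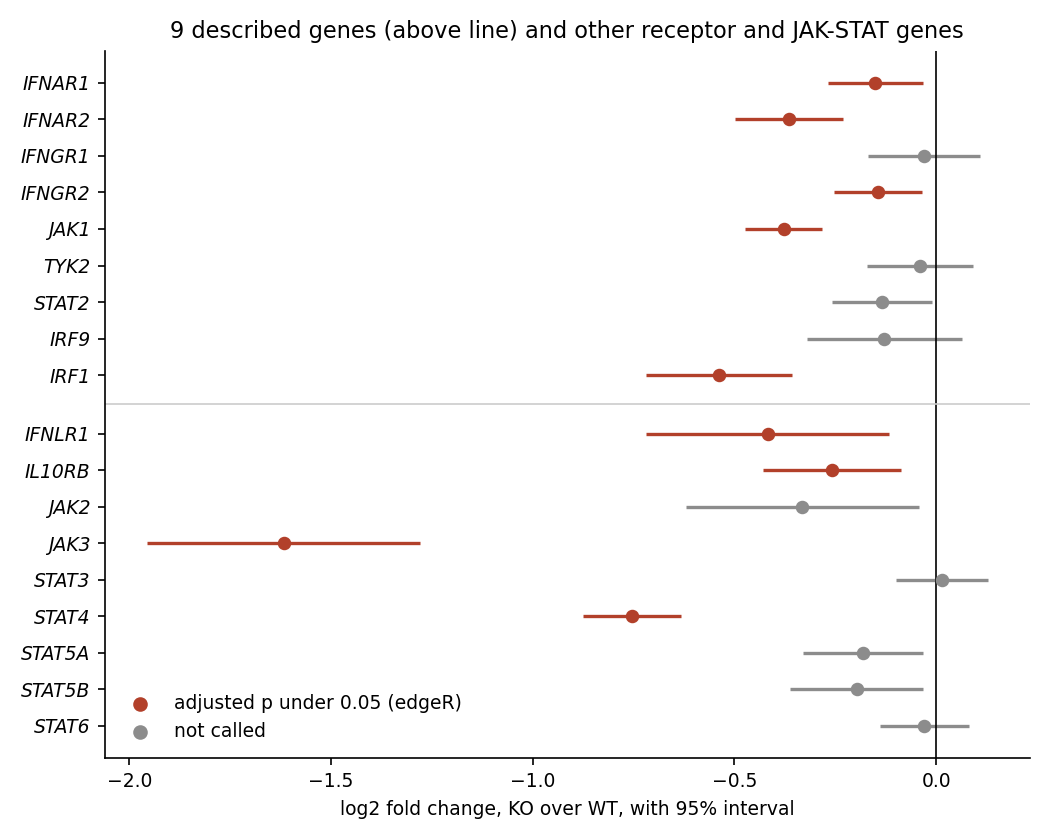
Log2 fold change of KO over WT with its 95% interval for the 9 genes above the line and for 9 other receptor chain and JAK-STAT genes below it, coloured where the adjusted p was under 0.05. The called points all lie left of 0, from JAK3 at -1.62 to IFNGR2 at -0.14.

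Ratios between partners within a library do not depend on the scaling between libraries. The ratio of IFNAR1 to IFNAR2 in TPM was 1.11, 1.07 and 1.19 in KO libraries, against 1.00, 0.887 and 0.996 in WT libraries. In TPM the RNA of both genes was close to parity in WT, and IFNAR1 RNA was slightly above IFNAR2 RNA in KO, without overlap. Protein of the chains was not measured. JAK1 to TYK2 stood at 9.51, 8.20 and 7.77 in KO libraries, against 11.4, 10.7 and 10.04 in WT libraries, also without overlap. For both, a two-sided exact permutation test gave p = 0.1 (n = 3 each), below which this design cannot go, and 0.2 after Benjamini-Hochberg adjustment over the 4 ratios. The ratio of IFNGR1 to IFNGR2 was 0.249 ± 0.0240 in KO and 0.232 ± 0.0115 in WT (exact permutation p = 0.4, adjusted 0.533, n = 3 each). STAT2 to IRF9 was 1.64 ± 0.0721 in KO and 1.64 ± 0.0834 in WT (exact permutation p = 1, adjusted 1, n = 3 each), a difference of 0.00062 on the log2 scale.

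**Figure D3:**
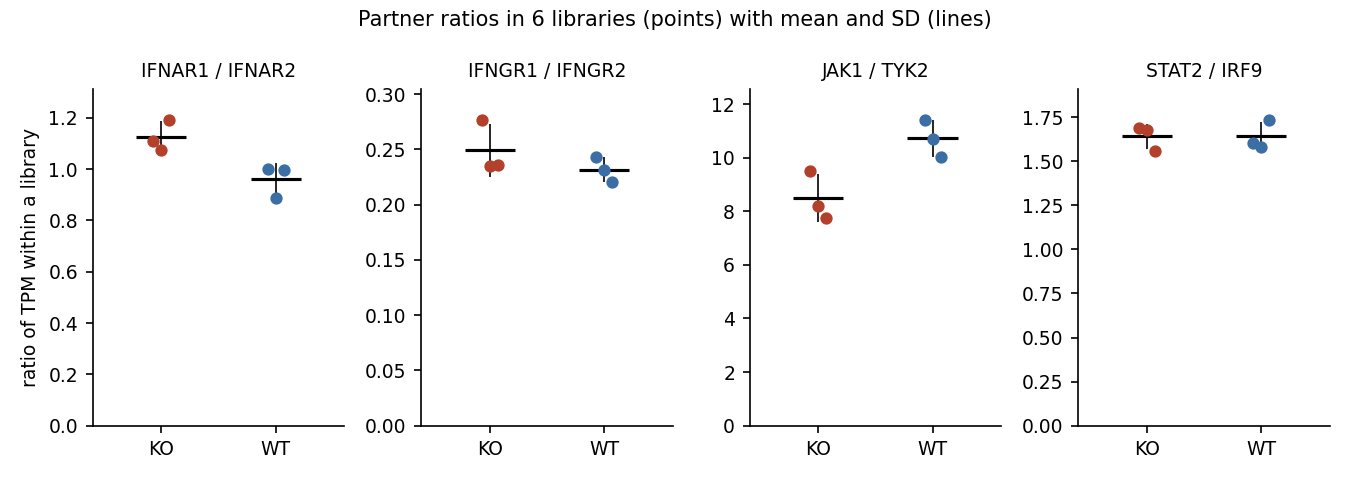
Ratio of TPM between partner genes within each library, with 1 point per library, the mean as a horizontal line and the SD as a vertical line, KO left of WT, on axes that start at 0. IFNAR1 over IFNAR2 is higher and JAK1 over TYK2 lower in each KO library than in any WT library, while the groups overlap for the other ratios.

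The transcript table divided the reads of the 9 genes over 65 entries for RefSeq models, of which 44 were tested and 5 are second copies of another entry (3 of IRF9 and 2 of IFNGR2). In edgeR 0 of them passed, with 6 at an unadjusted p under 0.05, where 2.13% of the 44030 tested transcripts passed, with 1.14% higher and 0.99% lower. IRF1 was split between NM_002198 and XM_011543379. NM_002198 had 131, 102 and 127 reads in KO libraries, against 165, 186 and 187 in WT libraries. XM_011543379 had 94.5, 91.6 and 121 reads in KO libraries, against 169.6, 148 and 142 in WT libraries. Their log2 fold changes were alike, at -0.57 and -0.58 (adjusted p = 0.187 and 0.242), and NM_002198 made up 52.4% ± 4.90 of IRF1 reads in KO and 53.4% ± 5.01 in WT. JAK1 reads fell mostly on NM_002227, at 75.0% ± 5.89 in KO and 71.7% ± 1.88 in WT, with log2 fold changes of -0.33 for it and -0.66 for NM_001321856 (adjusted p = 0.129 and 0.244).

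Receptor models were more spread for IFNAR2 than for the other chains. A single model held 94.2% ± 3.95 of IFNAR1 reads in KO and 94.4% ± 2.71 in WT (NM_000629), 91.5% ± 1.899 of IFNGR1 reads in KO and 93.3% ± 2.14 in WT (NM_000416), and 94.8% ± 0.175 of IFNGR2 reads in KO and 95.6% ± 1.30 in WT (NM_005534). IFNAR2 reads were spread over 8 models. The largest, NM_207585, held 26.9% ± 4.86 in KO and 27.1% ± 7.07 in WT. TYK2 model NM_001385206 had 0 reads in every KO library, against 10.7, 15.9 and 29.6 reads in WT libraries (adjusted p = 0.135 in edgeR), while NM_003331 held 84.8% ± 1.44 of TYK2 reads in KO and 84.8% ± 2.197 in WT. A split of reads between overlapping models is uncertain. IRF9 models were listed in duplicate, 3 of its 6 entries being second copies with the same estimated reads as the first. NM_006084 and its copy each had 82.8, 89.2 and 83.4 reads in KO libraries and 99.9, 93.4 and 94.0 in WT libraries, and the gene count was their sum with the other models.

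The genes around each of the 9 were examined because the medians of chromosomes 1 and 6 lay above 0 in KO. Gene order came from start positions in the NCBI table for GRCh38, and overlapping genes from its start and end positions. The submitters' notes name the build GRCh37. IFNAR2, IL10RB, IFNAR1 and IFNGR2 follow each other directly among tested genes on chromosome 21, and each of the 4 fell. IL10RB, a chain shared by the interferon lambda and interleukin 10 receptors, had 24.6 ± 1.97 CPM in KO and 29.4 ± 3.39 CPM in WT, with overlapping libraries (log2 fold change -0.26, SE 0.083, adjusted p = 0.0156 in edgeR), a call lost without KO replicate 2, WT replicate 1 or WT replicate 2 (adjusted p = 0.0987, 0.119 and 0.0696) and in 3 limma settings (0.0671 to 0.0864). The 24 tested genes around IFNAR2, which include those other 3, had a median of -0.05, with 2 higher and 6 lower, and all 120 tested genes of chromosome 21 had one of -0.0013. RefSeq also lists a read-through gene over IFNAR2 and IL10RB, which was not analysed here.

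JAK1 ran against its surroundings. The 24 tested genes around it on chromosome 1 had a median log2 fold change of 0.14, with 9 higher and 1 lower, and the 1287 tested genes of that chromosome had a median of 0.12. JAK1 was 0.52 below its neighbours on the log2 scale. IFNGR1 lies on chromosome 6, whose 645 tested genes had a median of 0.26, but its own 24 neighbours had a median of -0.03, with 4 higher and 9 lower. Around IRF1 on chromosome 5 the neighbours had a median of -0.10, with 6 higher and 8 lower, so IRF1 was 0.44 below them. For TYK2, STAT2 and IRF9 the neighbours' medians were 0.0088, 0.05 and 0.02.

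**Figure D4:**
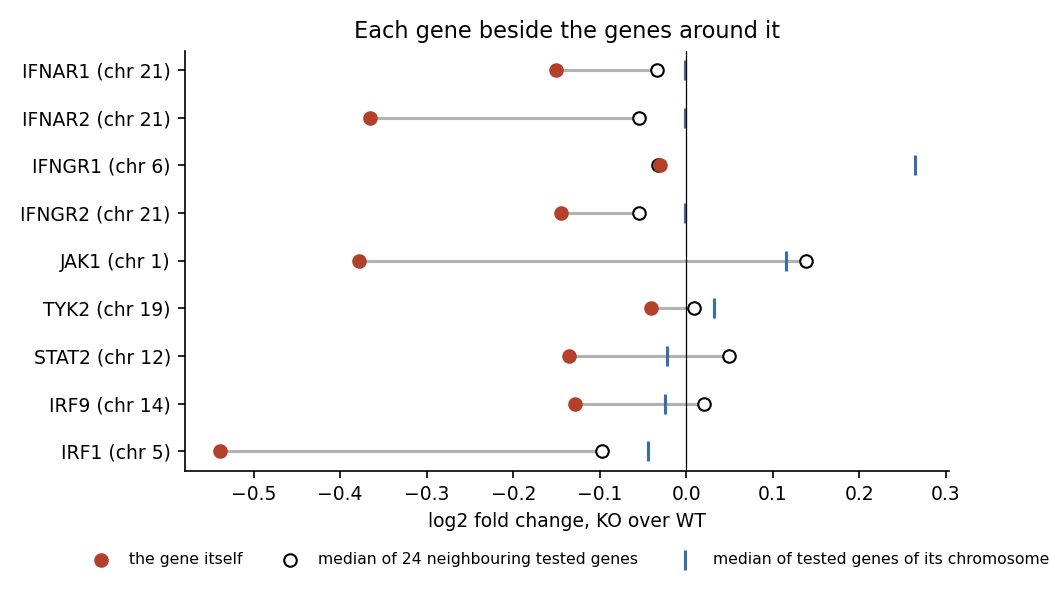
Log2 fold change of each gene (filled), the median of 24 neighbouring tested genes (open) and the median of tested genes of its chromosome (bar), KO over WT. JAK1, at -0.38, lies 0.52 left of its neighbours' median, and IFNGR1 lies on its neighbours' median although its chromosome is shifted to 0.26.

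Other receptor chains and JAK-STAT genes fell or were not called. Of 10 listed, 9 were tested, with a median log2 fold change of -0.26. In edgeR 4 fell (44.4%, against 18.1% of all tested genes) and 0 rose (against 18.7%). The higher count was also 0 in DESeq2 and at an unadjusted p under 0.05. Without KO replicate 2 or without WT replicate 1 the lower count was 2, where 1837 of 12825 and 2123 of 12812 tested genes were lower. STAT4, best known from lymphocytes, fell to 41.0 ± 0.476 CPM in KO, against 69.2 ± 0.713 CPM in WT (log2 fold change -0.75). JAK3, the kinase of common gamma chain receptors, fell to 1.92 ± 0.325 CPM in KO, against 5.91 ± 0.532 CPM in WT. IFNLR1, the ligand-binding chain for interferon lambda, fell to 3.77 ± 0.381 CPM in KO, against 5.03 ± 0.589 CPM in WT (log2 fold change -0.42, adjusted p = 0.0263 in edgeR). Its call was lost without KO replicate 1, KO replicate 2, WT replicate 1 or WT replicate 2 (adjusted p = 0.0918, 0.0658, 0.128 and 0.0610), in DESeq2 (0.111) and in 3 limma settings (0.0595 to 0.0739). JAK2, the kinase on IFNGR2, had 4.34 ± 0.217 CPM in KO and 5.47 ± 0.812 CPM in WT and was not called (adjusted p = 0.0666), nor was STAT3 at a log2 fold change of 0.01 (95% interval -0.10 to 0.13).

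None of the listed interferon genes reached the level at which it could be tested. Of 13 listed ligand genes 6 were in the table and 0 passed the filter, and their summed level was 0.119 to 0.298 CPM in KO libraries and 0.117 to 0.178 CPM in WT libraries, where 3 reads correspond to 0.175 to 0.179 CPM. Differences in transcripts of these ligands were not detectable at this depth. Other IRF genes gave 0 higher and 0 lower of 4 tested in edgeR and in DESeq2, with 0 in either direction at an unadjusted p under 0.05 and a median log2 fold change of 0.09 (1 was higher without KO replicate 1). Of 19 inhibitors of the pathway, 3 were higher (15.8%, against 18.7% of all tested genes) and 1 was lower (5.26%, against 18.1%). Their median log2 fold change was 0.02. IRF2BP2, a corepressor of IRF2, rose to 91.5 ± 2.15 CPM in KO, against 62.4 ± 1.57 CPM in WT. CISH, an inhibitor of STAT5 signalling, rose to 6.52 ± 1.34 CPM in KO, against 4.13 ± 0.773 CPM in WT (log2 fold change 0.66, adjusted p = 0.00132 in edgeR), a call lost in limma on log2 of TPM plus 1 (0.0518). USP18, which blocks JAK1 at IFNAR2 and is itself interferon-induced, rose to 3.17 ± 0.237 CPM in KO, against 2.22 ± 0.570 CPM in WT (log2 fold change 0.52, adjusted p = 0.0363 in edgeR), a call lost without KO replicate 2, KO replicate 3, WT replicate 1 or WT replicate 2 (adjusted p = 0.110, 0.0669, 0.0988 and 0.183), in DESeq2 (0.131) and in 3 limma settings (0.0543 to 0.0611). The phosphatase gene PTPN1 fell by 0.25 on the log2 scale. SOCS3, with a log2 fold change of 0.09, and SOCS1, with -0.68 on 27 reads in all KO libraries and 44 in all WT libraries, were not called (adjusted p = 0.413 and 0.151).

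Genes downstream fell in number on the ISGF3 side. Of 36 ISGF3 targets 26 were tested, with a median log2 fold change of -0.43. Among those tested, 19 fell (73.1%, against 18.1% of all tested genes) and 1 rose (3.85%, against 18.7%). OASL, IFIT1, IFIT2 and IFIT3 had log2 fold changes of -2.59, -1.60, -1.37 and -1.34, each larger than that of any of the 9 genes. The 24 tested genes around each of IFIT1, IFIT2 and IFIT3 on chromosome 10 had a median of -0.25, with 2 higher and 13 lower. Each of these sets includes the other IFIT genes, which fell themselves, so it is not independent of them. The 24 tested genes around OASL on chromosome 12 had a median of -0.04, with 3 higher and 5 lower. SAMD9, named after its values were seen, was the 1 that rose (log2 fold change 0.19, adjusted p = 0.0456), and this count was 0 without KO replicate 1, KO replicate 2, WT replicate 2 or WT replicate 3. Targets of interferon gamma were mixed, with 6 higher and 7 lower of 24 tested and a median of -0.09. NLRC5, the transactivator of class I antigen presentation, fell to 1.88 ± 0.627 CPM in KO, against 6.96 ± 0.801 CPM in WT, and B2M, the class I light chain, fell to 277 ± 6.04 CPM in KO, against 386 ± 11.6 CPM in WT. APOL1 fell by 0.69 on the log2 scale. LAP3, an aminopeptidase, rose by 0.53 on the log2 scale, and its 24 neighbours on chromosome 4 had a median of 0.54. Without genes of chromosomes 4 and 6, a choice made after seeing the data, the gamma targets had 3 higher and 7 lower of 19 tested, and the ISGF3 targets 1 higher and 16 lower of 23. Genes of chromosome 1 were kept in this recount, although the median of that chromosome was 0.12, against 0.08 for chromosome 4.

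**Figure D5:**
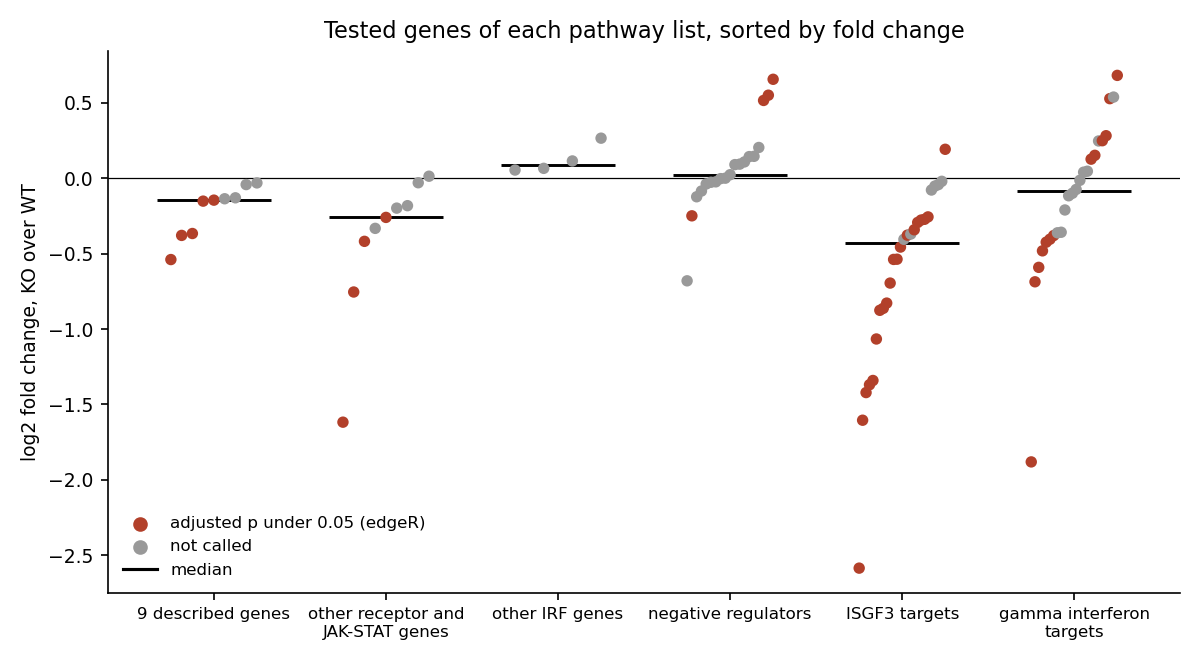
Log2 fold change of KO over WT for the tested genes of 6 lists, each list sorted by value, with a line at its median and colour where the adjusted p was under 0.05. The 9 genes have a median of -0.14 and the ISGF3 targets one of -0.43, while negative regulators and other IRF genes centre close to 0.

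Some markers of other cell types differed between the groups. Of 6 endothelial markers 3 were listed and only 2 were tested, ENG and ESAM. Both fell, where 18.1% of all tested genes fell and 36.8% were called. The 3 listed endothelial markers summed to 50.2 to 55.5 CPM in KO libraries and 67.9 to 79.7 CPM in WT libraries, with PECAM1 at 0.476 ± 0.157 CPM in KO and 0.372 ± 0.186 CPM in WT. COL1A1 was the 1 that fell of 2 tested fibroblast markers, against the same 18.1%. The 6 listed fibroblast markers summed to 18.5 to 21.4 CPM in KO libraries and 21.8 to 28.6 CPM in WT libraries. Among epithelial markers KRT7 and SLC4A4 fell by 0.96 and 1.34 on the log2 scale, and EPCAM and PAX8 rose by 0.29 each. Their part in the results above was not tested.

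By Pearson's r of log2 CPM over the 6 libraries, the gene most like IRF1 among 10734 was NCOA5 (r = 0.999), that most like JAK1 was NIN (r = 0.999), and that most like IFNAR1 was ERCC6L (r = 0.997). IFNGR1 was closest to AIDA (r = 0.992), STAT2 to YPEL2 (r = 0.998) and IRF9 to TBC1D3L (r = 0.982), a member of a family of near-identical copies among which reads can be split. All points share the 6 libraries in 2 groups, and 692 genes had an r over 0.95 with JAK1, so such values describe these libraries only.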

How the data were processed

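RNA-seq of 6 HK-2 libraries (3 KO, 3 WT) was analysed. Tools named in the submitters' processing notes are HISAT2 2.0.1, Cuffdiff 2.2.1, cutadapt 1.9.1, FastQC 0.10.1 and bcl2fastq 2.17.1.14, with the build GRCh37. The sources used here do not give the read counter, library kit or strand setting, so reads of overlapping genes (TMEM50B with IFNGR2, RAVER2 with JAK1) cannot be told apart by strand. The authors deposited estimated counts, TPM and, per gene, FPKM for each library, of which 13.0% to 14.0% of estimated counts were not whole; they were rounded. Deposited TPM values served for levels and ratios, and the authors' FPKM values only for alternatives.

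All genes were fitted with edgeR 4.0.16 in R 4.3.3 (filterByExpr with a minimum count of 10 and total of 15, TMM, robust quasi-likelihood test of KO against WT, Benjamini-Hochberg adjustment over 12702 genes, threshold 0.05), and transcripts likewise. The SE was obtained by dividing the size of the log2 fold change by the root of the F statistic. Alternatives used DESeq2 1.42.0 and limma 3.58.1. The steps were tested on simulated counts. Every pair of replicates differed by more than sampling noise (chi-square per degree of freedom of 2.02 to 6.06).

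The 9 genes, the lists and the tests were chosen with earlier results of these data known. Genes named are the 9, RETREG1, TAX1BP1, STAT3, JAK2, IL10RB, SOCS1, SOCS3, USP18, up to 4 called genes of each pathway list by smallest adjusted p (2 for marker lists) and 1 gene most like each of 6 members; other markers are named as checks. Another gene of the pathway is not reported here. The interval of a fold change covers 95%. Floors of 3 reads cover counting error only.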

Additional observations from a re-analysis of the deposited data

How the results depend on the processing

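Across 15 alternative settings the 42 named genes gave 625 values. Of these, 575 kept their side of the threshold, 46 missed it, 4 newly passed it and 0 reversed with a call. Values near 0 could change sign without a call. IFNGR1 and TYK2 were each below 0 in 14 of the 15 settings, and STAT3 was below 0 in 2. RETREG1, JAK2, SOCS1, USP18 and IFNLR1 have no value under the filter of 5 CPM in 3 libraries, which they did not pass. The calls for IRF1, JAK1 and IFNAR2 held in all 15 settings, and IFNAR1 and IFNGR2 missed the threshold in 9 and 6. The number of the 9 genes that were lower was 5, and it was 3 with TMM factors from genes outside chromosomes 1, 4 and 6, 3 in limma on log2 of TPM plus 1, and 3 to 4 when 1 library was left out (3 without KO replicate 3 or WT replicate 2). Over all tested genes the main fit called 2299 of 12702 lower. That count was 2018 of 12702 with those TMM factors and 2148 of 16115 in that limma setting. It was 2145 of 12814 without KO replicate 3 and 1891 of 12794 without WT replicate 2. The cause of these differences between settings was not tested. On log2 of FPKM plus 1 the RETREG1 change was -0.64, since that scale understates low genes.

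Correlations of deviations between same-numbered libraries were 0.22, 0.02 and 0.16. WT replicates 1 and 3 correlated best with the KO library of the same number, but WT replicate 2 with KO replicate 3 (0.06). Whether replicate numbers pair the libraries therefore stays undecided. A replicate block raised the calls over all 12702 tested genes to 3013 higher and 2934 lower, against 2380 and 2299 without it. With the replicate block 6 of the 9 genes were lower (STAT2 passed, adjusted p = 0.0204), as were 7 of the other receptor and JAK-STAT genes, and 1 other IRF gene and 5 negative regulators were higher. Limma on log2 of TPM plus 1 gave 1 negative regulator higher. Of ISGF3 targets 0 were higher in DESeq2, with upper-quartile scaling, with the filter of 5 CPM, and in limma on TPM plus 1, FPKM plus 1 and FPKM plus 0.1, and 0 to 1 when 1 library was left out. The leukocyte list had 1 lower with no filter on low counts and in each of those 3 limma settings. Leaving out 1 library gave 2 to 5 other receptor and JAK-STAT genes lower, 0 to 1 other IRF genes higher and 0 to 1 leukocyte genes lower (1 without WT replicate 1 or any KO replicate). Counting no genes of chromosomes 4 and 6, an alternative added after seeing the data, gave 3 gamma interferon targets higher, against 6. Of the 44 tested transcripts 0 passed in edgeR in any setting tried, and the reads of IRF9, the fewest of the 9 genes, leave its change the least precise.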
